A study of Mus musculus with 4 samples.

Results

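The 8 Sox genes described here are Sox4, Sox11, Sox12, Sox5, Sox6, Sox13, Sox17 and Sox10, out of 54532 gene IDs in the files. They were taken by name, with Ensembl IDs paired to symbols by GENCODE M21, and the family members Sox9 and Sox2 were left out. The samples were fetal pancreas of wild-type C57BL/6 mice, which the series describes as pancreatic epithelium, and their RNA was sequenced. The stages ran from E11.5 through E13.5 and E15.5 to E18.5 (days of embryonic development), and each has 1 deposited sample. The sources used here do not give how the epithelium was isolated or how many fetuses went into a sample.

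Sox proteins bind DNA through an HMG box, the domain they share with the testis-determining factor Sry, and bend the helix as they bind. The family is sorted into groups by that box. SoxC proteins (Sox4, Sox11, Sox12) activate transcription in progenitors of many tissues, and Sox4 is needed in the mouse pancreas for endocrine cells to form. SoxD proteins (Sox5, Sox6, Sox13) have no known activation domain of their own and pair through a coiled coil, and Sox5 and Sox6 work with Sox9 in cartilage. Sox10 (SoxE) marks neural crest cells, glia and the otic vesicle. Sox17 (SoxF) acts in endoderm and in vascular endothelium, and sets the border between pancreas and bile duct primordia.

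Each deposited value is an FPKM (fragments per kilobase of exon, divided by a size set for each library) that the authors averaged over libraries. Multiplied by the exon length, the values of most genes above 0 were sums of whole reads from 2 libraries, and 1327 to 1369 genes per stage gave no such sum. For the 8 genes both read counts were recovered in every stage. Estimated reads per library lay between 1.37e+07 and 1.80e+07. Levels are scaled FPKM, and ± gives the SD between both libraries of a stage (n = 2). An SD of 2 values can lie below the counting error of the reads. An example is Sox10 at E15.5, with 41 and 35 reads and an SD of 0.0106 FPKM. A small SD therefore does not show that a level is exact. The labels tie no library to an animal, so the SDs and p-values measure only the spread between libraries, which may be technical.

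The E11.5 sample stood apart in its marker genes. Oc90, which encodes a protein of the otoconia of the inner ear, was at 1251 FPKM there, and at 0 to 0.0437 FPKM at the later stages. By limma 12 of 12 tested otic genes fell at E13.5 against E11.5, where 37% of all 13049 tested genes fell (68.9% called in either direction). Limma took only genes that reached 1 FPKM in any stage. The 13 otic genes that did so all reached it at E11.5, and 0 of them at E13.5. Entry through E11.5 favoured a fall, so 12 of 12 beside 37% cannot be read as a test of it. The next sum takes every listed otic gene, tested or not. The summed level of 18 otic genes was 1413, 1.31, 0.437 and 2.57 FPKM from E11.5 to E18.5. The same sum over 15 neuronal genes was 2434, 72.8, 48.3 and 175.9 FPKM, and over 20 mesenchymal genes 447, 53.4, 51.4 and 92.7 FPKM. Erythroid genes were higher still, with a sum over 12 genes of 9809, 266, 295 and 640 FPKM. Vim alone made up 43.8, 27.5 and 36.6 FPKM of the mesenchymal sum from E13.5 to E18.5. Over the same stages the mesenchymal gene Dcn was at 0.472, 3.03 and 14.7 FPKM and Lum at 0.339, 2.14 and 11.4 FPKM. By limma 8 of 18 tested mesenchymal genes rose and 3 fell at E18.5 against E13.5, where 36% and 25.2% of all tested genes did. The pancreatic factor gene Pdx1 was at 2.93 FPKM at E11.5 and at 60.6 to 79.0 FPKM later, and the pancreatic factor gene Ptf1a was at 0.603 FPKM at E11.5 and at 22.2 to 119 FPKM later. In bulk samples fewer cells of a type and less RNA per cell cannot be told apart. The part of these other tissues in any difference against E11.5 or among the later stages was not tested. Differences among the 3 later stages take no level from that sample, but the fit shares its estimate of spread, its scaling and its choice of genes with it. With both E11.5 libraries left out of the fit the limma counts of called members stayed at 5 for E15.5 against E13.5 and 6 for E18.5 against E15.5.

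Sox4 was the highest of the 8 genes in every stage. Its level was 100.4 ± 0.0532 FPKM at E11.5, 67.3 ± 1.32 FPKM at E13.5, 51.8 ± 0.871 FPKM at E15.5 and 89.0 ± 2.42 FPKM at E18.5. It lay lowest at E15.5 and came back at E18.5 to a level between those of E11.5 and E13.5. The reads behind these levels were 17433, 11613, 5972 and 10936 over both libraries, so counting error was small. Sox4 ranked 508th among all genes at E11.5, 940th at E13.5, 1357th at E15.5 and 715th at E18.5. Single libraries were at 100.3 and 100.4 FPKM for E11.5, 66.4 and 68.2 FPKM for E13.5, 51.2 and 52.5 FPKM for E15.5 and 90.8 and 87.3 FPKM for E18.5. In every pair of stages the libraries of one stage did not overlap those of the other.

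By limma on all genes that could be split, Sox4 fell at E13.5 against E11.5 (log2 difference -0.57, SE 0.0333, adjusted p = 1.17e-05) and at E15.5 against E13.5 (-0.37, SE 0.0333, adjusted p = 0.000184). It rose at E18.5 against E15.5 (0.77, SE 0.0333, limma adjusted p = 4.72e-06), a ratio of 1.72. At E18.5 it was still below E11.5 (log2 difference -0.17, SE 0.0333, limma adjusted p = 0.00306). At E18.5 against E13.5 it was higher (0.40, SE 0.0333, limma adjusted p = 9.10e-05). That last direction depended on the scaling, since with every sample set to the same total FPKM the log2 difference was -0.05. The same setting gave a larger fall at E15.5 against E13.5, with a log2 difference of -0.99.

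Sox11, the closest relative of Sox4, followed another course. It was at 53.4 ± 1.49 FPKM at E11.5, 2.96 ± 0.0485 FPKM at E13.5, 0.641 ± 0.115 FPKM at E15.5 and 0.113 ± 0.0528 FPKM at E18.5. Single libraries were at 52.4 and 54.5 FPKM for E11.5, 2.996 and 2.93 FPKM for E13.5, 0.560 and 0.723 FPKM for E15.5 and 0.150 and 0.0753 FPKM for E18.5. Reads over both libraries were 16088, 887, 127 and 24. Each stage lay below the one before it with no overlap of libraries, and at E18.5 the gene was close to the lower end of what these libraries count. The fall at E13.5 against E11.5 was 18.05-fold (log2 difference -3.78, SE 0.0691, limma adjusted p = 1.06e-07). It fell again at E15.5 against E13.5 (-1.27, SE 0.0691, limma adjusted p = 2.78e-05), a ratio of 4.62 between the earlier and the later stage. The fall at E18.5 against E15.5 (-0.56, SE 0.0691, limma adjusted p = 0.000438) was 5.69-fold in FPKM, which the pseudocount of 1 compresses. Over the whole span Sox11 was 474-fold lower at E18.5 than at E11.5.

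Sox12, the third SoxC gene and the weakest activator of the group in the mouse, was at 15.4 ± 0.383 FPKM at E11.5, 7.74 ± 0.985 FPKM at E13.5, 7.34 ± 0.734 FPKM at E15.5 and 4.43 ± 0.320 FPKM at E18.5. It fell at E13.5 against E11.5 (log2 difference -0.91, SE 0.0967, limma adjusted p = 0.000193) and at E18.5 against E15.5 (-0.62, SE 0.0967, limma adjusted p = 0.00133). The levels of E15.5 and E13.5 overlapped between libraries (log2 difference -0.07, 95% interval -0.30 to 0.17, limma adjusted p = 0.594). The sign of that small difference turned when library 2 of E13.5 or library 2 of E15.5 was left out, to 0.05 and 0.02. With samples set to the same total FPKM the difference was -0.62 and passed the threshold (limma adjusted p = 0.00119).

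The SoxC genes therefore made up a changing mixture. Sox4 had 1.88 times the FPKM of Sox11 at E11.5, 22.7 times at E13.5, 80.8 times at E15.5 and 790 times at E18.5. The ratio of Sox4 to Sox12 moved less, with 6.52, 8.69, 7.06 and 20.1 at the same stages. Sox11 stood above Sox12 at E11.5 by a factor of 3.47, and Sox12 stood above Sox11 later, by factors of 2.62, 11.4 and 39.3. The summed SoxC level was 169, 78.0, 59.8 and 93.6 FPKM from E11.5 to E18.5.

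**Figure D1:**
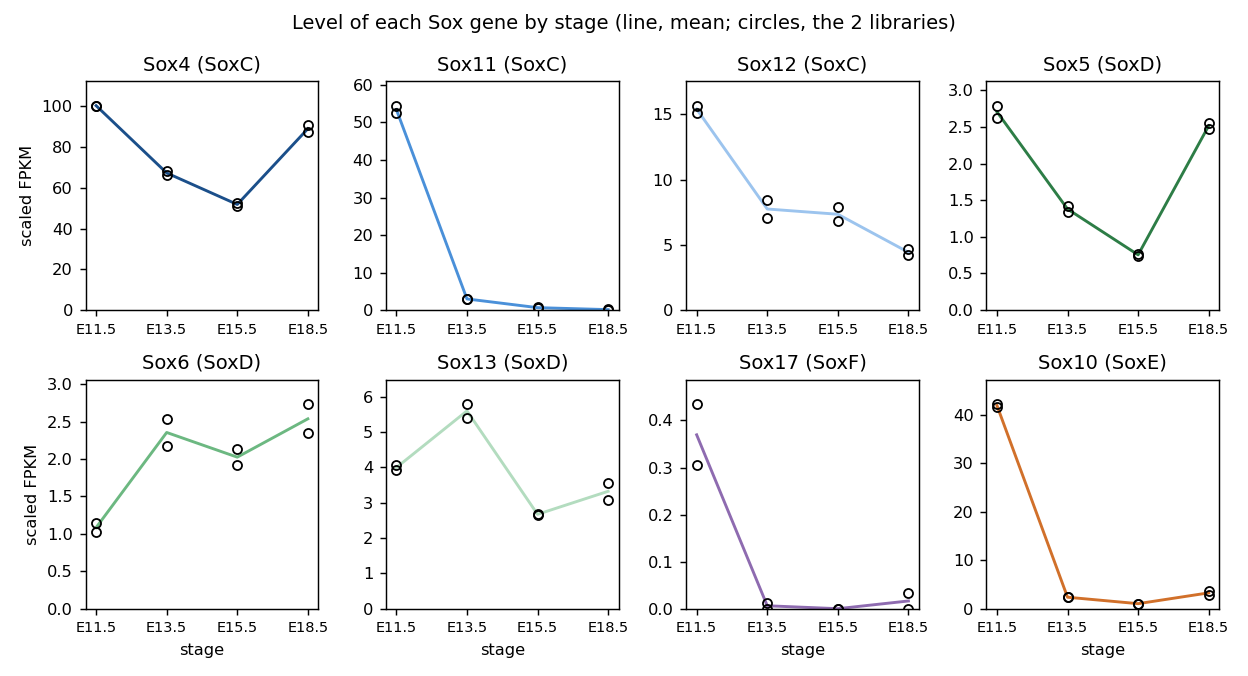
Scaled FPKM of each of the 8 genes (vertical axis, a separate range per gene) at the 4 stages (horizontal axis), with the mean as a line and the 2 libraries as circles. Sox4 dips to 51.8 FPKM at E15.5 and is at 89.0 FPKM at E18.5, whereas Sox11 and Sox10 drop to 2.96 and 2.36 FPKM at E13.5.

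The stretches of DNA before the annotated starts of the SoxC genes are shown because these 3 genes of 1 group followed separate courses. The sequences are RefSeq's (GRCm38.p6), 230 bases from 250 to 21 bases before the RefSeq start, 5′ to 3′ on the strand of the gene, with CCAAT and its reverse complement ATTGG in capitals. The Sox4 window is chr13:28953720-28953949, the Sox11 window chr12:27342739-27342968 and the Sox12 window chr2:152398067-152398296, all on the minus strand.
Sox4: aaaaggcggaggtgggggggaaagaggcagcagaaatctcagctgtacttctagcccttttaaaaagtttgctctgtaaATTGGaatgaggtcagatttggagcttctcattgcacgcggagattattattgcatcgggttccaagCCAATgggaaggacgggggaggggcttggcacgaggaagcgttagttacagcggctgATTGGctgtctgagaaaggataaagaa
Sox11: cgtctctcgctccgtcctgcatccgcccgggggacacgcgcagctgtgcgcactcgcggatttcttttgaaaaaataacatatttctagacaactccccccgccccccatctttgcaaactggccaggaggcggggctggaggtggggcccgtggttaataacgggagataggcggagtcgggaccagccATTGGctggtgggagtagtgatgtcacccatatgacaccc
Sox12: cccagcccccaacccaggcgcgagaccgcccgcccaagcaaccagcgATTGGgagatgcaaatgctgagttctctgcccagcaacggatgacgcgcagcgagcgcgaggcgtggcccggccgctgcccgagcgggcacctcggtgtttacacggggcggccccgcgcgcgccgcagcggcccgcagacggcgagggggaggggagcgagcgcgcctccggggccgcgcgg

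The letters CCAAT, searched on both strands, occurred 3 times before Sox4, once before Sox11 and once before Sox12. Of 27018 promoter windows of the same length, 32.8% held at least 1 match and 9.39% held 2 or more. GGGCGG, the GC box, occurred 0 times before Sox4, 2 times before Sox11 and 3 times before Sox12, against 29.9% of all windows with a match. TATAAA had 0 matches in the 3 windows, and 12.4% of all windows held it. The Sox core letters ACAAAG or ACAAT also had 0 matches in the 3 windows, and 37.6% of all windows held one. GC content was 49.1% before Sox4, 59.6% before Sox11 and 76.1% before Sox12, and the median over all windows was 51.7%. The windows held 8, 16 and 35 CG pairs for Sox4, Sox11 and Sox12. Matches of letters describe the sequence and do not show that a factor binds there. RefSeq starts were given for 6 of the 8 genes.

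The SoxD genes were low, and each had its own order of stages. Sox5, which acts with Sox6 as a partner of Sox9 in cartilage, was at 2.71 ± 0.1205, 1.38 ± 0.0632, 0.754 ± 0.0176 and 2.52 ± 0.0583 FPKM from E11.5 to E18.5. It fell at E13.5 against E11.5 (log2 difference -0.64, SE 0.0602, limma adjusted p = 0.000108) and at E15.5 against E13.5 (-0.44, SE 0.0602, limma adjusted p = 0.0011). It rose at E18.5 against E15.5 by 3.34-fold (1.004, SE 0.0602, limma adjusted p = 1.67e-05). Its difference at E18.5 against E11.5 did not pass the threshold (-0.08, 95% interval -0.22 to 0.07, adjusted p = 0.289). Like Sox4, Sox5 was thus lowest at E15.5.

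Sox6, whose protein pairs with Sox5 and also acts in red cell and muscle development, was at 1.08 ± 0.0918, 2.36 ± 0.264, 2.03 ± 0.147 and 2.54 ± 0.276 FPKM from E11.5 to E18.5. It was the only member with its lowest level at E11.5. It rose at E13.5 against E11.5 (log2 difference 0.69, SE 0.0909, limma adjusted p = 0.000571) and was higher at E18.5 than at E11.5 (0.76, SE 0.0909, limma adjusted p = 0.000267). No pair of the 3 later stages passed the threshold. The log2 difference was -0.15 for E15.5 against E13.5 (95% interval -0.37 to 0.07, limma adjusted p = 0.209), 0.22 for E18.5 against E15.5 (0.00477 to 0.44, adjusted p = 0.0653) and 0.08 for E18.5 against E13.5 (-0.14 to 0.30, adjusted p = 0.504). With samples set to the same total FPKM these differences were -0.57 (limma adjusted p = 0.00134), 0.32 (adjusted p = 0.0179) and -0.24 (adjusted p = 0.0506), so the first and second passed.

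Sox13, a SoxD gene known from lymphoid cells and the arterial wall, was highest at E13.5. Its levels were 3.99 ± 0.114, 5.60 ± 0.267, 2.67 ± 0.0153 and 3.32 ± 0.335 FPKM from E11.5 to E18.5. It rose at E13.5 against E11.5 (log2 difference 0.40, SE 0.0687, limma adjusted p = 0.00197) and fell at E15.5 against E13.5 (-0.85, SE 0.0687, limma adjusted p = 0.000126). The rise at E18.5 against E15.5 was small (0.23, SE 0.0687, limma adjusted p = 0.0213). It was lost when library 1 or library 2 of E15.5 or library 1 of E18.5 was left out, with adjusted p of 0.0654, 0.073 and 0.1. It was also lost with no filter on low values (adjusted p = 0.075), with no scaling (0.0734) and with the same upper quartile (0.071). The difference of -0.21 at E18.5 against E11.5 (limma adjusted p = 0.0286) was lost without library 1 or 2 of E11.5 or library 2 of E18.5 (adjusted p from 0.0749 to 0.136) and with no filter (0.0835).

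Sox6 and Sox5 exchanged places in level. Sox6 had 0.4002 times the FPKM of Sox5 at E11.5, 1.71 times at E13.5, 2.69 times at E15.5 and 1.008 times at E18.5. The summed SoxD level stayed within a narrow range, at 7.79, 9.33, 5.45 and 8.38 FPKM. Of 11 measured genes of cartilage matrix and related SoxD and SoxE targets, 1 was higher and 4 lower at E13.5 against E11.5 by the rule of size. That rule takes a 2-fold difference on the log2(FPKM + 1) scale with the higher stage at 5 FPKM or more, and took 5.77% of all measured genes as higher and 5.73% as lower in that comparison. Col2a1, the collagen gene that Sox5, Sox6 and Sox9 control in cartilage, was at 32.8, 7.29, 1.93 and 0.723 FPKM from E11.5 to E18.5. Cnmd, a cartilage glycoprotein gene, was at 268 FPKM at E11.5 and at 0.232 to 1.65 FPKM later. Others took another course, with the matrilin gene Matn4 at 0.299, 9.14, 8.16 and 1.69 FPKM and the collagen gene Col9a3 at 32.8, 18.1, 12.5 and 58.3 FPKM.

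Sox10 was at 41.9 ± 0.366 FPKM at E11.5, 2.36 ± 0.0646 FPKM at E13.5, 1.04 ± 0.0106 FPKM at E15.5 and 3.26 ± 0.550 FPKM at E18.5. Single libraries were at 41.6 and 42.1 FPKM for E11.5, 2.31 and 2.41 FPKM for E13.5, 1.04 and 1.03 FPKM for E15.5 and 3.65 and 2.87 FPKM for E18.5. Reads over both libraries were 4628, 259, 76 and 255. E11.5 lay far above the other stages, and E15.5 was lowest. The fall at E13.5 against E11.5 was 17.7-fold (log2 difference -3.67, SE 0.0859, limma adjusted p = 2.66e-07), close in size to that of Sox11. Sox10 fell further at E15.5 against E13.5 (-0.72, SE 0.0859, limma adjusted p = 0.000588) and rose at E18.5 against E15.5 by 3.15-fold (1.06, SE 0.0859, limma adjusted p = 6.26e-05). E18.5 was also above E13.5 (0.34, SE 0.0859, limma adjusted p = 0.0139), but not past the threshold without library 1 of E13.5 (adjusted p = 0.0641), and the difference was 0.01 with samples set to the same total FPKM. Sox11 and Sox10 thus parted after E15.5, with Sox11 lower and Sox10 higher at E18.5.

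Beside Sox10, the other 15 genes of the neural crest and glia list summed to 78.8, 9.75, 19.0 and 28.2 FPKM from E11.5 to E18.5. Fabp7, a fatty acid binding protein gene of glial precursors, was at 52.6 FPKM at E11.5 and at 0.330 to 0.535 FPKM later. S100b, a glial calcium binding protein gene that other cells also express, was at 0.0188, 0.148, 2.93 and 15.9 FPKM. The crest factor gene Foxd3 stayed below 1 FPKM in every stage, and Tfap2b, another crest factor gene, was at 3.98 FPKM at E11.5 and at 0 to 0.0165 FPKM later. The part of such cells in the Sox10 levels was not tested.

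Sox17 was the lowest member. Its level was 0.369 ± 0.0920 FPKM at E11.5, from 38 and 26 reads in the 2 libraries. Later it had 1 read at E13.5, 0 reads at E15.5 and 2 reads at E18.5 over both libraries. With 3 reads in both libraries together as the floor at E15.5 (0.0282 FPKM), the mean level of Sox17 at E11.5 was 13.1 times that floor. The floor covers counting error at E15.5 only, and the error of the E11.5 level is left out of this ratio. It did not reach 1 FPKM in any stage and had no limma test. The other SoxF genes were as low. Sox7 was at 0 to 0.109 FPKM and Sox18 at 0 to 0.257 FPKM, both highest at E11.5. Of 14 endothelial genes only Egfl7 reached 1 FPKM in any stage, and the endothelial adhesion genes Pecam1 and Cdh5 were at most at 0.160 and 0.00923 FPKM.

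Of the 8 members 7 reached 1 FPKM in any stage and entered limma. All 7 were called in at least 1 comparison, but single comparisons already called 57.1% to 78.3% of all tested genes. At E13.5 against E11.5, 5 fell and 2 rose, where 37% of all 13049 tested genes fell and 32% rose (68.9% in either direction). At E15.5 against E13.5, 5 fell and 0 rose, against 27.5% and 29.6% of all tested genes. At E18.5 against E15.5, 4 rose and 2 fell, against 38% and 31.2% (69.3% in either direction). At E18.5 against E11.5, 1 rose and 5 fell, against 37.3% and 38.2%. At E18.5 against E13.5, 3 rose and 3 fell, against 36% and 25.2% (61.3% in either direction). At E15.5 against E11.5, 1 rose and 6 fell, against 37.8% and 40.6% (78.3% in either direction). These last 2 comparisons were added after the data were seen, to set stages next in level beside each other. Most genes were called in these fits, also at E15.5 against E13.5 (57.1%) and E18.5 against E11.5 (75.5%), so a call by itself says little about a member. The comparisons share samples and are not independent of each other.

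By the rule of size fewer members passed. Sox11 and Sox10 were lower at E13.5 against E11.5 and 0 were higher, where 5.73% of 14841 measured genes were lower and 5.77% higher. At E18.5 against E11.5, Sox11, Sox12 and Sox10 were lower and 0 were higher, where 7.55% of measured genes were lower and 10.4% higher (18% in all). At E15.5 against E11.5, Sox11 and Sox10 were lower, where 8.74% of genes were lower and 11.1% higher (19.8% in all). At E15.5 against E13.5, 0 members passed, where 3.64% of genes were higher and 1.48% lower (5.11% in all). At E18.5 against E15.5, 0 members passed, where 6.29% were higher and 5.55% lower (11.8% in all). At E18.5 against E13.5, 0 members passed, where 5.34% were higher and 3% lower (8.34% in all). In these comparisons among later stages Sox5, Sox6, Sox10, Sox11 and Sox17 stayed below 5 FPKM, so the rule could not take them. The same held for Sox13 at E18.5 against E15.5. Sox5 and Sox10 were 3.34-fold and 3.15-fold higher at E18.5 than at E15.5, and Sox11 was 26.3-fold lower at E18.5 than at E13.5. With samples set to the same total FPKM the split of all genes at E15.5 against E13.5 was 190 higher and 1357 lower, against 540 and 219 with the scaling used here, and at E18.5 against E11.5 it was 962 and 2766, against 1544 and 1120. At E13.5 against E11.5 it was 795 and 1183, against 857 and 851, and at E18.5 against E15.5 it was 1039 and 534, against 933 and 823. Limma called 5 and 6 of the 7 tested members at E15.5 against E13.5 and at E18.5 against E15.5. The median log2 difference of the 7 measured members was -0.64, -0.44 and 0.24 in the 3 steps between consecutive stages, beside -0.03, 0 and 0.04 over all measured genes.

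**Figure D2:**
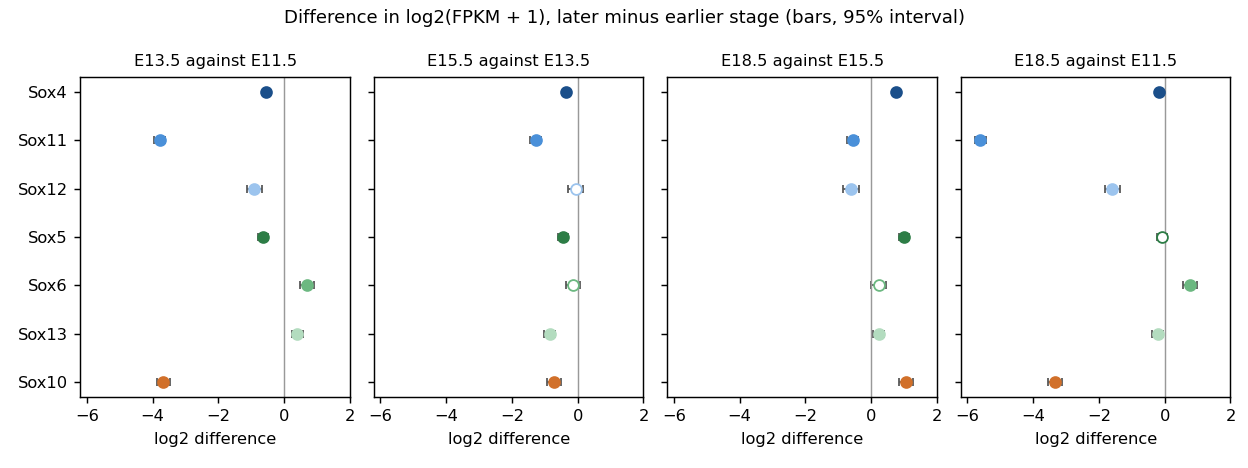
Log2 difference, later minus earlier stage (horizontal axis), of the 7 members tested by limma in 4 comparisons, with 95% intervals as bars. Filled points passed an adjusted p of 0.05 and open points did not, and the largest falls are those of Sox11 and Sox10 at E13.5 against E11.5 (-3.78 and -3.67) and at E18.5 against E11.5 (-5.61 and -3.34).

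The summed FPKM of the 8 members was 219, 89.7, 66.3 and 105 from E11.5 to E18.5. The share of Sox4 in it was 45.8% at E11.5, and later 75.03%, 78.2% and 84.6%. Sox11 took 24.4%, 3.30%, 0.967% and 0.107% at the same stages, and Sox10 took 19.1%, 2.63%, 1.56% and 3.10%. Sox12 held its largest share at E15.5, at 11.1%. Sox13 came next after Sox12 from E13.5 to E18.5, at 6.24%, 4.03% and 3.16%.

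**Figure D3:**
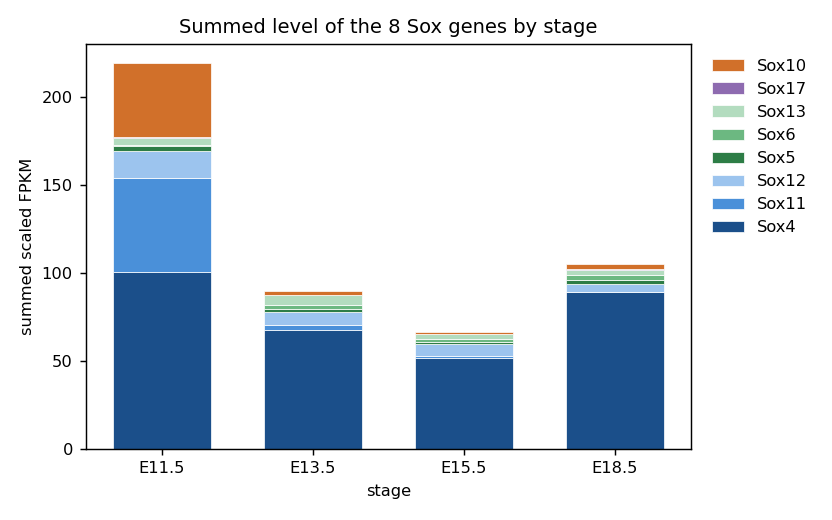
Summed scaled FPKM of the 8 Sox genes (vertical axis) at the 4 stages (horizontal axis), with a coloured segment per gene. The bar at E11.5 reaches 219 FPKM with large segments of Sox4, Sox11 and Sox10, and Sox4 makes up 84.6% of the bar at E18.5.

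Within the whole family the 8 members took 73.3% of the FPKM of 19 autosomal and X-linked Sox genes at E11.5, and later 41.4%, 56.5% and 45.3%. Most of the rest was Sox9, the progenitor and duct factor gene, and Sox4 had 2.03, 0.547, 1.07 and 0.713 times its FPKM from E11.5 to E18.5. Among genes outside the member list, Sox21 was at 5.71, 0.636, 0.154 and 0.0925 FPKM and Sox3 at 1.58, 0.116, 0.0188 and 0.0377 FPKM, both highest at E11.5 as Sox11 was. Sox8, a relative of Sox10, was at 1.27, 0.962, 0.316 and 0.413 FPKM. Sox15 went the other way, at 0.0966, 0.316, 1.77 and 0.771 FPKM, and rose at E15.5 against E13.5 (log2 difference 1.07, SE 0.132, limma adjusted p = 0.000709). It reached 1 FPKM, and so entered limma, through E15.5 alone, which favoured a rise to that stage. The rise rests on 10 reads at E13.5 and 37 at E15.5 over both libraries. Sox1, Sox30 and Sry did not reach 1 FPKM in any stage, as Sox7 and Sox18 did not, and Sox14 reached it at E11.5 alone, at 1.14 FPKM.

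Genes linked to SoxC proteins in other tissues did not share 1 course. Tubb3, a neuronal tubulin gene that Sox11 activates in neurons, was at 427, 13.8, 7.22 and 33.6 FPKM, and Dcx, a neuronal microtubule gene, at 9.61, 0.892, 0.640 and 2.82 FPKM from E11.5 to E18.5. Tead2, a Hippo pathway factor gene, was at 22.0, 16.99, 19.1 and 8.23 FPKM. Ezh2, a Polycomb enzyme gene, was at 36.9 FPKM at E11.5 and at 8.01 FPKM at E18.5. Stmn1, the highest of the list at every stage, was at 3550, 1223, 954 and 531 FPKM. Neurog3, also in this list, went the other way, at 0.429, 133.7, 85.8 and 200.3 FPKM. Of the 10 genes of this list the rule of size took 1 as higher and 5 as lower at E13.5 against E11.5, where it took 5.77% and 5.73% of all measured genes. Their median log2 difference was -1.06, beside -0.03 over all measured genes. At E15.5 against E13.5 the rule took 0 of them, where it took 5.11% of all measured genes in either direction.

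Like Sox4, most genes of endocrine progenitors had a lower level at E15.5 than at E13.5 and E18.5. Without Sox4 itself, the 17 other genes of this list summed to 456, 616, 399 and 919 FPKM from E11.5 to E18.5. Of 18 genes in the list with Sox4, 0 were higher and 4 lower at E15.5 against E13.5 by the rule of size, and 11 were higher and 0 lower at E18.5 against E15.5. By limma 1 of 13 tested rose and 10 fell in the first of these comparisons, and 13 of 13 rose in the second, Sox4 among them. The median log2 difference of the list was -0.61 and 1.09 in these comparisons, beside 0 and 0.04 over all measured genes. Of all measured genes the rule of size took 3.64% as higher and 1.48% as lower in the first comparison, and 6.29% and 5.55% in the second, and by limma 29.6% rose and 27.5% fell, then 38% and 31.2%. The dip was not particular to this list. The 9 measured duct genes had medians of -0.55 and 1.74 and the 15 neuronal genes of -0.47 and 1.20 in the same comparisons. Other lists did not dip. The 15 acinar enzyme genes had medians of 5.04 and -0.22, and the 8 islet hormone genes of 2.02 and 3.50. Acinar enzyme genes summed to 6424, 118738 and 65801.5 FPKM from E13.5 to E18.5. The part of this change in the dips was not tested. Sox9, itself in the duct list, was at 123.1, 48.4 and 124.9 FPKM from E13.5 to E18.5. The lists are not separate, since Isl1 is in both the endocrine progenitor and the neuronal list. It made up 40.4, 28.9 and 102.8 FPKM of neuronal sums of 72.8, 48.3 and 175.9 FPKM over these stages. Neurog3, the factor gene that starts endocrine differentiation, was at 0.429, 133.7, 85.8 and 200.3 FPKM. Insm1, an endocrine zinc finger factor gene, was at 20.5, 22.2, 7.72 and 25.1 FPKM. At E11.5, where Sox4 was highest, the list was mixed. Neurog3 had its lowest level there, whereas Neurod1, an endocrine and neuronal factor gene, was at 196.8, 38.7, 23.1 and 95.2 FPKM from E11.5 to E18.5. Sox4 was measured in whole samples, and the share of it that lay in endocrine progenitors was not measured.

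**Figure D4:**
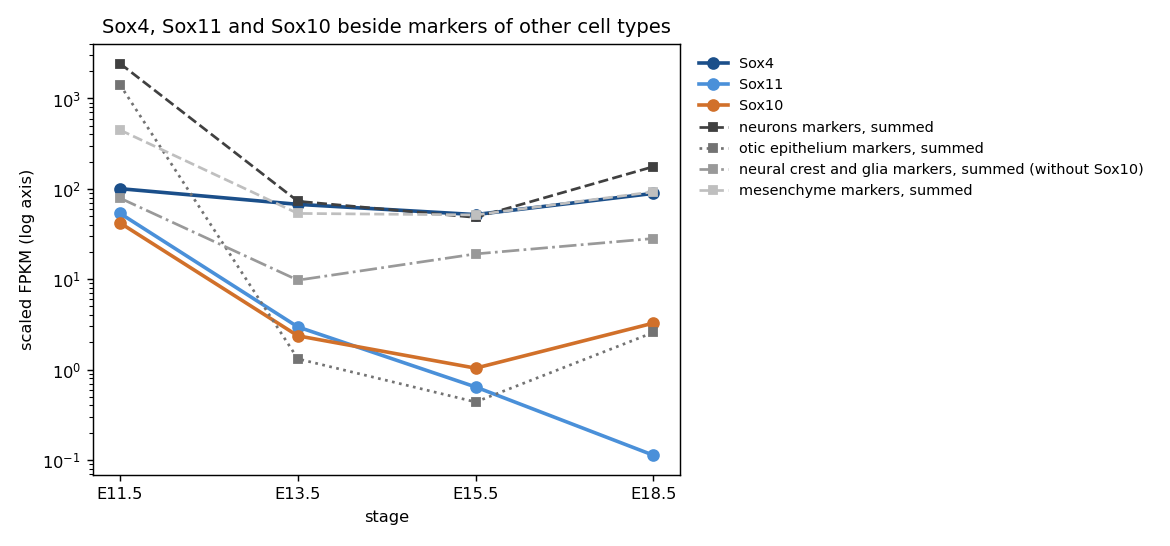
Scaled FPKM on a log axis at the 4 stages for Sox4, Sox11 and Sox10 (coloured lines) and for summed marker genes of neurons, otic epithelium, neural crest and glia without Sox10, and mesenchyme (grey lines). Sox11 and Sox10 stand at 53.4 and 41.9 FPKM at E11.5, where the neuronal and otic sums are 2434 and 1413 FPKM, while Sox4 stays between 51.8 and 100.4 FPKM.

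The genes with the most similar profile over the 4 stages were sought for each member that reached 5 FPKM, by the root mean square difference of centred log2(FPKM + 1) values, among 7896 protein-coding genes. For Sox4 they were Snap47, Eid2b, Rnf41 and Flcn, with differences of 0.0204 to 0.0333. For Sox11 they were Crabp1, Gng3, Igdcc3 and 6330403K07Rik, with differences of 0.257 to 0.339, farther away than those of Sox4. Crabp1, a retinoic acid binding protein gene, was at 128, 8.86, 4.27 and 1.17 FPKM. For Sox10 they were Syt11, Uchl1, Fbxo2 and Tbx1, at 0.134 to 0.177, and Fbxo2, also in the otic list, was at 28.1, 0.771, 0.0904 and 1.61 FPKM. Sox12 was closest to Prtn3, Casp8ap2, Nde1 and Zfp428 (0.0455 to 0.0756), and Sox13 to Hdac1, Atxn10, Casp2 and Xylt2 (0.0492 to 0.0681). These are descriptions over 4 points, and with so few points many genes lie close to any profile.

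The members lie apart in the genome. By GENCODE M21 (mm10), Sox4 (ENSMUSG00000076431) is on chromosome 13 from 28948919 to 28953713, Sox11 (ENSMUSG00000063632) on chromosome 12 from 27334264 to 27342574 and Sox12 (ENSMUSG00000051817) on chromosome 2 from 152393611 to 152398063. Sox5 (ENSMUSG00000041540) is on chromosome 6 from 143828425 to 144781977, Sox6 (ENSMUSG00000051910) on chromosome 7 from 115470872 to 116038796 and Sox13 (ENSMUSG00000070643) on chromosome 1 from 133382303 to 133424377. Sox17 (ENSMUSG00000025902) is on chromosome 1 from 4490931 to 4497354 and Sox10 (ENSMUSG00000033006) on chromosome 15 from 79154908 to 79165240. All 8 are on the minus strand.

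An annotated lincRNA on the other strand, Gm26735, covers 54.6% of the exon bases of Sox4 and was listed at 0 in every stage. Likewise Sox5os1 covers 9.25% of those of Sox5 and Gm37587 covers 16.8% of those of Sox17, both listed at 0 in every stage. The sources used here do not say whether reads were counted by strand or how shared stretches were treated, so the absolute levels of Sox4, Sox5 and Sox17 are uncertain. In the other 5 members 0% of the 50-base windows of their transcripts occurred in transcripts of other genes.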

How the data were processed

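The authors deposited 1 FPKM value per Ensembl gene and stage, averaged over libraries. Reads were aligned with HISAT2 2.0.5 to mm10, per the submitters' processing notes. The counting tool, its annotation and the number of libraries are named nowhere in the sources used here. For 22834 to 23893 genes per stage, FPKM times GENCODE M21 exon length was split into whole reads of 2 libraries, within 0.75 of the last printed place and with at most 0.2 pairs expected by chance. The 1327 to 1369 genes per stage with no such pair, and those with too many reads or several pairs, were not split and not tested by limma. Samples were scaled by the median of ratios over 9884 genes. Among 14841 genes with at least 1 FPKM in any stage, the rule of size took 2-fold differences of log2(FPKM + 1) with the higher stage at 5 FPKM or more. Limma 3.58.1 (trend, Benjamini-Hochberg adjustment, threshold 0.05) in R 4.3.3 tested 13049 genes split in all 8 libraries, two-sided, and was tested on simulated data. No read depth beyond these recovered reads was known. Floors cover counting error only.

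The members, the gene lists and the comparisons were chosen with earlier results of these data known. Named genes were the members, the other Sox genes, and, of each list, up to 4 with the largest difference and up to 2 with the highest level. Similar profiles were the 4 closest genes per member. Insm1, Tead2, Ezh2, Foxd3, Tfap2b, Pecam1 and Cdh5 were chosen after their values were seen. Isl1 was also named outside this selection, as a gene shared by lists. Scaling, pseudocount, fold, minimum level, the chance limit and each library left out were varied. The setting with no scaling keeps whatever scaling the deposited values already carry.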

Additional observations from a re-analysis of the deposited data

How the results depend on the processing

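Of the member values under an alternative, 572 kept direction and side of the threshold, 14 lost and 4 gained the call and 7 turned, and of the counts of members 85 stayed within 1.5 times and 9 did not. The count by the rule of size at E15.5 against E13.5, 0 as reported, was 1 with the same total FPKM, a pseudocount of 0.1, a fold of 1.5, a minimum of 1 FPKM or no minimum. At E18.5 against E15.5, also 0, it was 2 with a fold of 1.5, a minimum of 1 FPKM or no minimum. Limma called 3 instead of 5 members at E15.5 against E13.5 with at most 0.05 chance pairs, where Sox4 and Sox11 could not be split at E11.5 and were not tested. For E18.5 against E13.5, the same total FPKM gave -0.0481 for Sox4 and -0.24 for Sox6, and the same upper quartile gave -0.0195 for Sox6. Leaving out a library in turn gave -0.18 to 0.0489 for Sox12 at E15.5 against E13.5, and -0.00399 to 0.16 for Sox6 at E18.5 against E13.5. The same total FPKM moved the median of all genes by -0.11, -0.41, 0.11 and -0.46 on the log2 scale at E13.5 against E11.5, E15.5 against E13.5, E18.5 against E15.5 and E18.5 against E11.5. With it Sox12 and Sox6 also fell at E15.5 against E13.5, Sox6 rose at E18.5 against E15.5, and Sox5 fell at E18.5 against E11.5 (-0.51, limma adjusted p = 0.000203). The cause of these changes was not tested. No paired analysis was possible because each stage has 1 deposited sample and the recovered libraries carry no labels. Depth limits Sox17 at every stage and Sox11 at E18.5.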

Other observations

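Antisense and host transcripts named after Sox genes were low. Sox6os was at 0.787, 1.28, 0.583 and 0.558 FPKM from E11.5 to E18.5, from at most 12 reads in a library. Sox5os2 was at 0.0881, 0.142, 0.348 and 0.747 FPKM, highest at E18.5, but from at most 6 reads in a library. Sox2ot was at 0.348 FPKM at E11.5 and at 0 to 0.0234 FPKM later. Sox5os1, Sox5os5 and Sox5it were listed at 0 in every stage.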
